A study of Mus musculus with 2 samples.

Results

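Among the macrophages of the infarcted mouse heart, 145 cell barcodes carried transcripts of at least 2 of the genes *Scin*, *Saxo1* and *Casr*, and they are described here as the Scin and Saxo1 macrophage subset. A barcode (the tag that droplet sequencing gives to each captured cell) belonged to the subset when it had at least 3 UMIs (molecules counted once each) summed over these 3 genes, with at least 2 of the genes detected. It also had at least 1 UMI of *Csf1r*, the receptor for the main macrophage growth factor, at least 5000 UMIs in all, at most 10% of UMIs from mitochondrial genes, and at least 0.4% from *Malat1*, a nuclear RNA. The limits left 6467 of 18770 deposited barcodes eligible. Of these, 92 of 2369 were members in the library labelled CD40 KO and 53 of 4098 in the WT library. The other 2277 and 4045 eligible barcodes are called the others below. The 3 genes chose the members, so their levels describe the choice and are not a result.

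The study compared macrophages from CD40 knockout (KO) and wild-type (WT) mouse hearts 3 days after myocardial infarction (MI), with 1 droplet library per group. The cells came from the infarct and its border zone and were sorted as positive for CD45, a marker of blood-derived cells, CD11b, a myeloid integrin, and CD64, an Fc receptor of macrophages. The sources used here do not give the *Cd40* allele, the age of the mice or how many mice each library holds. The libraries held 8146 barcodes with 90057108 UMIs in CD40 KO and 10624 barcodes with 139343516 UMIs in WT. *Cd40*, a receptor of the TNF receptor family, had 15.2 CPM (counts scaled to 1000000 UMIs, summed over barcodes) in CD40 KO members and 23.5 CPM in WT members, and 16.9 and 18.3 CPM in the others. A 3′ tag outside the deleted part of a gene does not check a knockout label, so every direction below is between libraries as they are labelled. The 2 libraries shared 23 barcode sequences, and 0 of them were members. With 1 library per group no test between groups was possible. All intervals given are exact at the 95% level, and what they cover is counting error alone.

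After infarction, monocytes enter the heart and become macrophages that clear dead cells, remodel matrix and later guide scar formation, next to the resident macrophages that survive. *Scin* encodes scinderin (adseverin), a calcium-dependent protein of the gelsolin family that cuts actin filaments. *Saxo1* encodes a stabiliser of microtubules known from cilia and centrioles, and *Casr* encodes the calcium-sensing receptor, a G protein-coupled receptor best known from the parathyroid gland. These genes are not standard markers of a macrophage type.

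The 3 genes lie on different chromosomes, and the 250 bases before each start are shown because the members were chosen on these genes. The sequences are from RefSeq (build GRCm38.p6), 5′ to 3′ on the gene's own strand, with matches to the searched motifs in capitals. They lie at chr12:40134229-40134478 for *Scin*, chr4:86558304-86558553 for *Saxo1* and chr16:36562135-36562384 for *Casr*, all on the minus strand.
Scin: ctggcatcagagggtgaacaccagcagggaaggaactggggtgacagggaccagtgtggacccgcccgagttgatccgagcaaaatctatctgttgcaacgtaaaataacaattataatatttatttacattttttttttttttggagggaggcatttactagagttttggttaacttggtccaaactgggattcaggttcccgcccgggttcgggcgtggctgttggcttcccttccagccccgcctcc
Saxo1: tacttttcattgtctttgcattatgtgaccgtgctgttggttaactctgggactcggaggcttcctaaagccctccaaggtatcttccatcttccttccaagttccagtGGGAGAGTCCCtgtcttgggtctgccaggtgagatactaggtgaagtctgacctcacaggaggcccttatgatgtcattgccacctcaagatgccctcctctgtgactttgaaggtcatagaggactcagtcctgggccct
Casr: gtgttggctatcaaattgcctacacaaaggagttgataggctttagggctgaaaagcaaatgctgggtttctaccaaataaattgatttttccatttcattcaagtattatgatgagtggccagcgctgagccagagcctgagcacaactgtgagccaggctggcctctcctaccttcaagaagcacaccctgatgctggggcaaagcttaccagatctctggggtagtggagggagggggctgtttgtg

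The motifs were those of ETS factors and PU.1 (GAGGAAGT), AP-1 (TGANTCA), E-boxes (CACGTG), RUNX (TGTGGTT), NF-kB and STAT (TTCNNNGAA), searched on both strands. The *Saxo1* sequence held overlapping matches to the NF-kB motif on the forward and the reverse strand, and the *Scin* and *Casr* sequences held 0 matches. Of 32851 RefSeq promoter sequences, 17.6% held the NF-kB motif, and between 2.44% (ETS and PU.1) and 7.02% (STAT) held each of the others. A match is a string of letters and not a site in use.

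Most members carried more than the minimum of the 3 transcripts. Their summed marker UMIs were 3 at the lowest, 9.5 at the median and 78 at the highest in CD40 KO, against 3, 7 and 51 in WT. All 3 genes were detected in 26 CD40 KO members (28.3%) and 14 WT members (26.4%). *Scin* was detected in 84 of 92 CD40 KO members and 47 of 53 WT members, *Casr* in 74 and 38, and *Saxo1* in 52 and 35. The pair of *Scin* and *Casr* without *Saxo1* was the most frequent partial pattern, in 40 CD40 KO and 18 WT members. Summed levels in members were 185 CPM of *Scin* in CD40 KO and 204 CPM in WT, 102 and 98.0 CPM of *Casr*, and 78.3 and 71.2 CPM of *Saxo1*. Just inside the limit, 8 CD40 KO and 6 WT members had exactly 3 marker UMIs. Just outside it, 11 and 3 others had 2 UMIs from 2 genes, and 54 and 31 had 3 or more UMIs from a single gene. Most others had no UMI of the 3 genes (2048 of 2277, 89.9%, in CD40 KO and 3869 of 4045, 95.6%, in WT).

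Free RNA in droplets gives low counts in every cell type, so the same genes were read in barcodes with at least 1000 UMIs, without *Csf1r*, that carried at least 5 UMIs of another type's transcripts. The 3 genes summed to 366 CPM in CD40 KO members and 374 CPM in WT members. They summed to 10.8 CPM in CD40 KO others (median depth 16242 UMIs) and 4.34 CPM in WT others (15044 UMIs). Fibroblast barcodes had 8.86 CPM in CD40 KO (95% interval 4.42 to 15.9, 67 barcodes, median depth 9935 UMIs) and 12.8 CPM in WT (9.04 to 17.5, 126 barcodes, 20070.5 UMIs), and 1 of the WT fibroblast barcodes met the marker rule. Dendritic barcodes had 5.17 CPM in CD40 KO (1.07 to 15.1, 37 barcodes) and 15.1 CPM in WT (7.81 to 26.4, 47 barcodes). Endothelial barcodes had 9.58 CPM in CD40 KO (0.243 to 53.4, 10 barcodes) and 1.20 CPM in WT (0.145 to 4.34, 171 barcodes). Neutrophil barcodes had 0 UMIs in 21 CD40 KO barcodes and 5.76 CPM in 89 WT barcodes, and T or NK and B barcodes, read in WT only, had 0 UMIs in 29 and 23 barcodes. By CPM the WT others were thus below the fibroblast and dendritic barcodes and above the point value of the endothelial ones. In CD40 KO the others were above the point values of the fibroblast, dendritic and endothelial barcodes. The others leave out every barcode that met the marker rule and the WT fibroblast barcodes keep 1, so these groups are not alike. The 38 WT fibroblast UMIs lay in 5 of 126 barcodes (3.97%), and 4.35% of WT others had a UMI of the 3 genes. Of the WT dendritic barcodes 12.8% had one. Members and others were separated by these same genes, so the gap between them was fixed by the choice.

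The members carried the transcripts of macrophages. *Adgre1*, which encodes the macrophage protein F4/80, had 208 CPM in CD40 KO members and 183 CPM in CD40 KO others, and 302 and 276 CPM in WT. *Cd68*, a lysosomal membrane protein of macrophages, had 439 and 425 CPM in CD40 KO, and 610 and 595 CPM in WT. *Fcgr1*, which encodes the sorted CD64, had 178 and 169 CPM, and 199 and 186 CPM. The complement genes *C1qa*, *C1qb* and *C1qc* were between 0.24 and 0.49 higher on the log2 scale in members. *Csf1r*, which every eligible barcode had to carry, went the other way. It had 231 and 270 CPM in CD40 KO (log2 ratio -0.23), and 197 and 238 CPM in WT (-0.27). Of 12 measured macrophage genes, 9 were above the others in both libraries, 2 were below, and 0 differed 2-fold in both. The markers are those of macrophages. The summed level of 12 neutrophil markers was 412 CPM in CD40 KO members and 589 CPM in CD40 KO others, and 914 and 942 CPM in WT. T and NK cell markers summed to 71.4 and 84.1 CPM, and to 83.6 and 90.4 CPM, with 9 of 12 markers at 0 in CD40 KO members and 1 in WT members. Of 9 mast cell and basophil markers, 7 were at 0 in CD40 KO members and all 9 in WT members. B cell markers summed to 79.7 and 36.9 CPM in CD40 KO, and to 106 and 48.9 CPM in WT. Fibroblast markers summed to 584 and 441 CPM in CD40 KO, and to 316 and 512 CPM in WT. The 4 transcripts *Col1a1*, *Col1a2*, *Col3a1* and *Dcn* gave 1077 UMIs in CD40 KO members, and 972 of them (90.3%) came from 1 member. Endothelial markers summed to 160 and 102 CPM in CD40 KO, and to 403 and 375 CPM in WT. Many members held some transcripts of other cell types. Without barcodes that had at least 3 UMIs of such genes, 42 of 92 CD40 KO members and 28 of 53 WT members remained. They were 2.88% and 0.991% of the eligible barcodes that remained. The part that transcripts of other cell types had in the results below was not tested.

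Members were a larger share of the CD40 KO library at the same depth limits. They made up 3.88% of eligible barcodes in CD40 KO (95% interval 3.14% to 4.74%) and 1.29% in WT (0.970% to 1.69%). The members were also deeper than the others, with a median of 34892 UMIs against 16242 in CD40 KO and 24381 against 15044 in WT. The share climbed with depth in both libraries. It was 0.632% between 5000 and 10000 UMIs and 15.03% from 50000 UMIs in CD40 KO, and 0.201% and 3.59% in WT. In each of the 5 depth ranges the CD40 KO share was above the WT share, although the intervals overlapped in the lowest range and between 20000 and 50000 UMIs. When each barcode was thinned to 5000 UMIs, 24 CD40 KO barcodes (1.01%, 0.650% to 1.504%) and 16 WT barcodes (0.390%, 0.223% to 0.633%) met the marker rule. The shares therefore count barcodes in which the transcripts were detectable at this depth, not all cells that express the genes. The label and the library cannot be told apart as the source of the difference in share.

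**Figure D1:**
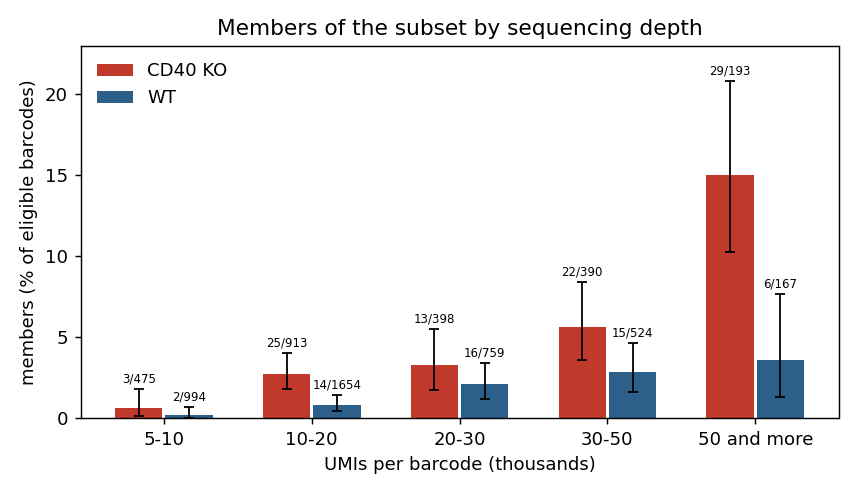
Members as a percentage of eligible barcodes (y axis) in 5 ranges of UMIs per barcode (x axis, in units of 1000), CD40 KO left of WT in each range. Error bars are exact 95% intervals for counting error and the numbers are members over eligible barcodes; the share climbed to 15.03% in CD40 KO and 3.59% in WT from 50000 UMIs.

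The members also lay together when the 3 genes were left out. Eligible barcodes of both libraries were clustered on other variable genes. Cluster 1 of 13, with 804 barcodes, held 69 of 92 CD40 KO members (75%) and 34 of 53 WT members (64.2%). The same cluster held 28.9% of all eligible CD40 KO barcodes and 2.90% of the WT ones. Members made up 12.8% of it, 10.1% in CD40 KO and 28.6% in WT. Among the nearest neighbours of a member, 38.6% were members in CD40 KO and 39.6% in WT. For the others the values were 1.53% and 0.673%. At a finer resolution 86 members (59.3%) shared a cluster of 176 barcodes, of which they were 48.9%, but at a coarser one the libraries' members were apart. There 50 CD40 KO and 3 WT members (36.6% of all) lay in a cluster of 2059, and 19 CD40 KO and 27 of 53 WT members lay in a cluster of 68, of which they were 67.6%. Scrublet, which scores how much a barcode looks like a mix of cells, marked 7 CD40 KO members (7.61%) and 12 WT members (22.6%), against 10.5% and 12.6% of the others. With marked barcodes removed first, 94 of the remaining members (74.6%) shared a cluster of 268.

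Apart from the 3 chosen genes, a small set of genes was higher in members than in others in both libraries. The members were chosen on transcripts of these same barcodes, so the differences describe the subset. Of 5637 genes whose members and others averaged at least 20 CPM in each library, 50 (0.887%) were at least 2-fold higher in members in both libraries and 0 (0%) were at least 2-fold lower. In the CD40 KO library alone 62 (1.1%) were 2-fold higher and 4 (0.071%) lower, and in WT alone 78 (1.38%) and 10 (0.177%). The 50 genes summed to 3893 CPM in CD40 KO members and 1140 CPM in CD40 KO others, and to 3615 and 870 CPM in WT. A gene of the set was detected in between 37.0% and 95.7% of CD40 KO members (median 63.0%) and between 20.8% and 96.2% of WT members (median 61.3%). In CD40 KO 0 of the 50 drew over 25% of its UMIs from 1 member, and in WT 3 did. Of the 50, 31 in CD40 KO and 33 in WT were under 20 CPM in the others and so met the minimum through the members' level; at a minimum of 100 CPM 3 genes were higher. Genes below 50 CPM in this mean, noncoding genes and companion genes were named after their values had been seen.

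Several of the 50 genes encode microtubule, centrosome or axoneme proteins; they were picked from the 50 by role and are no test of a theme. *Dnah12*, an axonemal dynein heavy chain, had 64.5 CPM in CD40 KO members and 6.18 CPM in CD40 KO others (log2 ratio 3.38, 95% interval 3.13 to 3.64), and 157 and 6.27 CPM in WT (4.65, 4.42 to 4.88). *Dnah17*, another axonemal dynein heavy chain, had 107 and 19.2 CPM in CD40 KO (2.48) and 55.5 and 3.86 CPM in WT (3.85). *Haus6*, a subunit of the augmin complex that branches spindle microtubules, had 108 and 17.6 CPM in CD40 KO (2.62, 2.44 to 2.79) and 106 and 12.1 CPM in WT (3.14, 2.89 to 3.38). *Poc1b*, a centriole protein, and *Ccdc138* were higher as well, with log2 ratios of 2.55 and 1.82 in CD40 KO and 1.31 and 2.46 in WT. Of 10 measured genes in a list of other microtubule genes 0 passed 2-fold, and the list's median log2 ratios were 0.16 in CD40 KO and 0.02 in WT, beside -0.03 and -0.02 over all measured genes. Of 4 measured gelsolin relatives of *Scin* 0 passed 2-fold. *Gsn*, gelsolin itself, had 220 and 217 CPM in CD40 KO, and 302 and 282 CPM in WT.

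Other genes of the 50 encode enzymes. *Asah2*, a neutral ceramidase, had 164 CPM in CD40 KO members and 19.97 CPM in CD40 KO others (log2 ratio 3.04, 2.89 to 3.19), and 96.0 and 14.4 CPM in WT (2.74, 2.48 to 2.99). It was detected in 66 of 92 and 28 of 53 members. *Tll2*, a metalloprotease of the tolloid family, had 62.2 and 3.75 CPM in CD40 KO (4.05) and 51.6 and 1.46 CPM in WT (5.14). *Pde4c*, a phosphodiesterase that breaks down cyclic AMP, had 38.4 and 3.21 CPM in CD40 KO (3.58) and 74.5 and 3.23 CPM in WT (4.53). *Hao1*, a peroxisomal hydroxyacid oxidase known from liver, had 72.0 and 18.1 CPM in CD40 KO, and 63.4 and 26.9 CPM in WT.

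Further genes of the set act at the nuclear pore, in RNA processing or in signalling, and were likewise picked by role. *Nup107*, a scaffold protein of the nuclear pore, had 182 CPM in CD40 KO members and 42.5 CPM in CD40 KO others (2.10, 1.97 to 2.23), and 167 and 40.6 CPM in WT (2.04, 1.85 to 2.22). It was detected in 86 of 92 and 51 of 53 members. *Rps6kb1*, the S6 kinase downstream of mTOR, had 217 and 61.0 CPM in CD40 KO (1.83) and 174 and 47.2 CPM in WT (1.89). *Stat5b*, a transcription factor of cytokine receptors, had 96.6 and 43.0 CPM in CD40 KO (1.17) and 98.7 and 38.1 CPM in WT (1.37). *Lsmem1* had 273 and 79.4 CPM, and 236 and 55.6 CPM. The Integrator subunits *Ints14* and *Ints2* were higher by 1.58 and 1.15 in CD40 KO and by 1.48 and 1.31 in WT on the log2 scale. *Cx3cr1*, the fractalkine receptor of monocytes and macrophages, had 126 and 64.9 CPM in CD40 KO, short of 2-fold there (0.96), and 167 and 70.3 CPM in WT (1.25). *Pecam1*, an adhesion protein of endothelium that leukocytes also carry, had 62.2 and 11.8 CPM in CD40 KO (2.40) and 108 and 11.9 CPM in WT (3.18). Of the 10 endothelial markers, *Cldn5* and *Tie1* were at 0 in the members of both libraries and the other 8 were detected in both. *Fabp4* and *Pecam1* made up most of the list's sum, and the remaining 6 lay between 0.573 CPM (*Egfl7*) and 4.30 CPM (*Flt1*) in CD40 KO members and between 0.653 CPM (*Cdh5*) and 5.88 CPM (*Flt1*) in WT members. The part of endothelial transcripts in the *Pecam1* level was not tested.

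**Figure D2:**
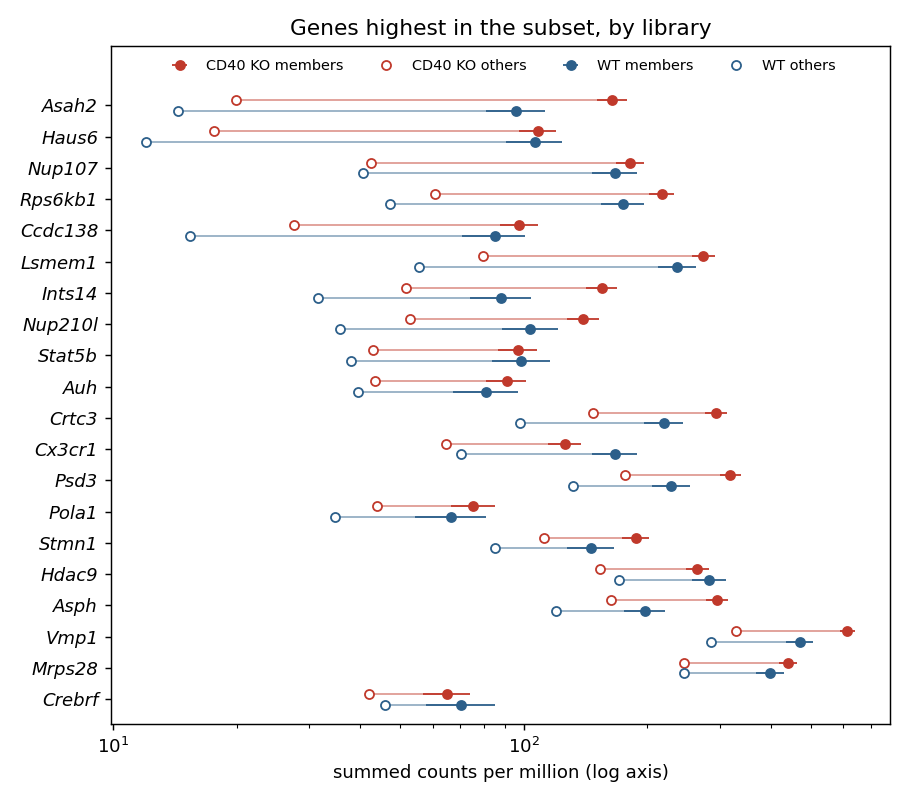
Summed CPM (x axis, log scale) of the 20 highest genes at a mean of at least 50 CPM, in members (filled, with exact 95% intervals) and others (open) of the CD40 KO library (upper line of each pair) and the WT library (lower line). Every filled point lies right of its open point, from *Asah2* (164 and 19.97 CPM in CD40 KO) to genes short of 2-fold such as *Vmp1*.

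Of the 50 genes 42 encode proteins and 8 are noncoding. These were 0.755% of 5563 measured protein-coding genes and 10.8% of 74 measured noncoding genes. *Gm43251*, the highest of the 50 in both libraries, had 59.3 CPM in CD40 KO members and 2.75 CPM in CD40 KO others (4.43), and 144 and 2.27 CPM in WT (5.99). *Eldr* had 61.6 and 8.10 CPM in CD40 KO, and 79.7 and 7.21 CPM in WT.

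The set extended to genes that the others hardly transcribed. Genes were grouped by their level in the others of one library and summed in the other library, so that the grouping and the reading used different barcodes. The 9675 genes under 1 CPM in WT others summed to 6776 CPM in CD40 KO members and 2666 CPM in CD40 KO others, 2.54-fold. The 9257 genes under 1 CPM in CD40 KO others summed to 4243 CPM in WT members and 1988 CPM in WT others, 2.13-fold. Between 1 and 3 CPM the ratios were 1.59 in CD40 KO and 1.53 in WT, and from 30 CPM upward they were between 0.966 and 1.001 in both.

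**Figure D3:**
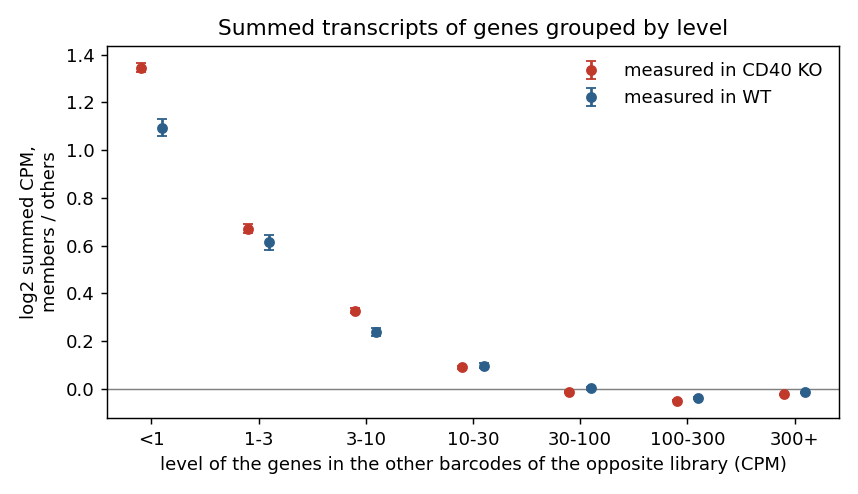
Log2 ratio of summed CPM in members over others (y axis) for genes grouped by their level in the others of the opposite library (x axis, CPM), with exact 95% intervals, CD40 KO left of WT. The ratio was highest for genes under 1 CPM, at 1.35 in CD40 KO and 1.09 in WT, and near 0 from 30 CPM.

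Genes under 5 CPM in the others, at least 10 CPM in members and at least 4-fold apart were taken as companion genes in one library and read in the other. The 123 companions chosen in WT summed to 2588 CPM in CD40 KO members and 387 CPM in CD40 KO others (6.70-fold), and 119 were higher there, 116 of them at least 2-fold. The 115 chosen in CD40 KO summed to 1825 CPM in WT members and 174 CPM in WT others (10.5-fold), and 105 were higher, 103 of them at least 2-fold. Chosen in both were 65 genes, 52.8% of the WT list and 56.5% of the CD40 KO list, on 19 chromosomes. Of these 49 encode proteins, and the share over all genes at such levels was not counted. The companions named here were chosen after their values had been seen. *Cpb2*, a plasma carboxypeptidase made in liver, had 61.4 CPM in CD40 KO members and 4.71 CPM in CD40 KO others, and 32.7 and 1.87 CPM in WT. *C9*, the pore-forming complement component, had 52.8 and 2.49 CPM, and 34.6 and 1.0 CPM. Not all members held them: *Cpb2* was detected in 54.3% of CD40 KO members and 34.0% of WT members, and *C9* in 33.7% and 22.6%. *Slc39a12*, a zinc transporter known from brain, had 42.4 and 2.77 CPM, and 28.1 and 0.961 CPM. *Hkdc1*, a hexokinase-domain protein, had 35.5 and 3.39 CPM, and 41.2 and 1.04 CPM. The ciliary genes *Cfap45*, *Cfap61* and *Dnah7a* and the heart transcription factor gene *Gata4* also belonged to the 65, at 11.2 to 22.4 CPM in CD40 KO members.

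How the 65 companions were spread over barcodes is a description, since they were chosen as high in these members and low in these others, and members were deeper. Of the 65 companions, CD40 KO members had a median of 22 detected (quartiles 15 and 27), against 1 in CD40 KO others, and WT members had 18 (12 and 24), against 0 in WT others. At least 10 were detected in 79 of 92 CD40 KO members (85.9%) and 45 of 53 WT members (84.9%), and in 4.13% and 1.33% of the others. UMIs of companions chosen in the opposite library, scaled to 1000000 UMIs of their barcode, had a median of 2538 in CD40 KO members and 188 in CD40 KO others, and 1592 and 67.9 in WT. Members deeper in UMIs had a smaller fraction. In CD40 KO it was 7897 CPM in the 3 members under 10000 UMIs and 1707 CPM in the 29 from 50000 UMIs. In WT it was 8080 and 977 CPM in 2 and 6 members. The others of these depths had 379 and 363 CPM in CD40 KO, and 106 and 291 CPM in WT. The rule asked for at least 3 marker UMIs at any depth, so a shallow member needed a larger marker fraction. The part of the rule in this fall was not tested. A part of the others resembled members in the number of companions detected. Of 94 CD40 KO others with at least 10 companions, 61 (64.9%) had at least 1 marker UMI, against 7.70% of the remaining others, and in WT 35 of 54 (64.8%) did, against 3.53%. These others were also deeper, with medians of 32986 UMIs against 15673 in CD40 KO and 28183 against 14883 in WT. The part that depth had in this was not tested.

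**Figure D4:**
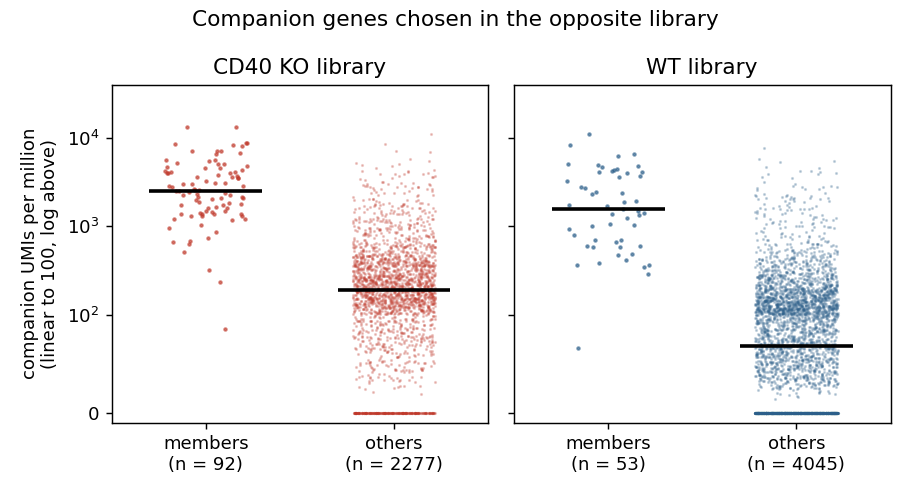
UMIs of companion genes chosen in the opposite library, scaled to 1000000 UMIs of each barcode (y axis, linear to 100 and logarithmic above), in members and others of the CD40 KO (left) and WT (right) libraries. Each point is a barcode and the bars are medians: 2538 in members and 188 in others of CD40 KO, 1592 and 67.9 in WT.

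Some of these genes are neighbours on the chromosome. Of the 50 higher genes 12 (24.0%) lay within 500 kb of another higher gene or of *Scin*, *Saxo1* or *Casr*, and 304 of 5587 measured genes that were not higher (5.44%) did. Within 100 kb the counts were 5 (10.0%) and 124 (2.22%). *Haus6* (chr4:86578855-86612055) lies 20.5 kb from *Saxo1*, *Lsmem1* (chr12:40175493-40199490) 41.3 kb from *Scin*, *Gm49662* (chr16:36569145-36598497) 7.004 kb from *Casr*, and *Man2a2* 24.6 kb from *Rccd1*, each pair on the same strand. Coordinates are from GENCODE vM21 on GRCm38. A higher gene spanned a median of 48.3 kb, and a measured gene that was not higher spanned 28.9 kb. The sources used here do not state the counting annotation or whether intron reads counted, and how far counts of neighbouring genes overlap was not tested.

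Cell cycle transcripts were moderately higher in members. All 17 genes of the G2 and M phase list were above the others in both libraries, and they summed to 561 CPM in CD40 KO members and 314 CPM in CD40 KO others (log2 0.83), and to 353 and 220 CPM in WT (0.68). Of 16 S phase genes 15 were above in both libraries, with 649 and 455 CPM in CD40 KO (0.51), and 582 and 368 CPM in WT (0.66). Of the measured genes of these lists, 8 in S phase and 3 in G2 and M phase, 0 passed 2-fold. *Top2a*, a topoisomerase of dividing cells, had 77.4 and 50.4 CPM in CD40 KO, and 56.8 and 32.3 CPM in WT. After thinning it was detected in 16.3% of CD40 KO members (9.42% to 25.5%) and 8.87% of CD40 KO others, and in 15.1% of WT members (6.75% to 27.6%) and 6.28% of WT others. Without thinning the *Top2a* shares were 44.6% and 20.6%, and 41.5% and 14.3%. The gap was smaller for *Mki67* of the G2 and M phase list. After thinning it was detected in 10.9% of CD40 KO members (5.34% to 19.1%) and 9.97% of CD40 KO others. In WT it was detected in 13.2% of members (5.48% to 25.3%) and 7.52% of others. *Ube2c*, *Pclaf* and *Mcm7*, which act in mitosis and DNA replication, were among the 50 higher genes, and in WT 1 member gave 35.9% of the *Ube2c* UMIs.

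Monocyte genes tended the other way without passing 2-fold in both libraries. Of 13 genes of the Ly6c monocyte list 10 were below the others in both libraries and 0 above. The share of all genes below in both was not counted. Over the list's 12 measured genes the median log2 ratios were -0.43 in CD40 KO and -0.31 in WT, beside -0.03 and -0.02 over all measured genes. *Ly6c2*, a surface protein of inflammatory monocytes, had 90.3 CPM in CD40 KO members and 182 CPM in CD40 KO others (log2 ratio -1.01), and 49.7 and 71.6 CPM in WT (-0.53). *Met*, the receptor for hepatocyte growth factor, had 93.5 and 159 CPM, and 39.9 and 67.3 CPM. *Csf2rb*, the shared chain of the GM-CSF receptor, had 92.6 and 140 CPM, and 61.4 and 87.7 CPM. *Mrc1*, a mannose receptor of resident and alternatively activated macrophages, had 545 and 286 CPM in CD40 KO (0.93), and 431 and 344 CPM in WT (0.32). The lists of MHC class II genes (6 measured), type I interferon genes (10), CC chemokines (9) and lysosomal genes (31) each held 0 genes past 2-fold, in a background of 0.887% higher and 0% lower.

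Genes differed in level between CD40 KO and WT members, and part of them differed past the same fold in the others. Of 3419 genes whose mean over the CD40 KO and WT members was at least 50 CPM, 295 (8.63%) were at least 1.5-fold higher in CD40 KO members than in WT members and 163 (4.77%) at least 1.5-fold lower. Among the same genes in the others, 226 (6.61%) were higher and 108 (3.16%) lower. Of the 295, 169 passed 1.5-fold in the others too and 290 had the same sign there, and of the 163, 80 and 159. Members and others are different barcodes of the same libraries, so a property of a whole library is common to both. Depth was not alike in both. Median UMIs in CD40 KO and WT were 34892 and 24381 in members, and 16242 and 15044 in the others. With WT weighted to the depth of CD40 KO, 230 of the 295 and 128 of the 163 stayed past 1.5-fold.

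*Mt2*, *Areg*, *Ptgs2* and *Cxcl3* were among the genes higher in CD40 KO members. For the lists that bear on such genes, the background was 8.63% higher and 4.77% lower. Of 15 measured antioxidant and metal genes 2 were higher and 1 lower (median log2 ratio 0.01), and of 8 eicosanoid genes 2 and 1 (-0.04). Of 8 growth factor genes 4 were higher and 1 lower (0.48), and of 6 CXC chemokine genes 3 and 0 (0.42). Of 10 genes of proinflammatory mediators 3 were higher and 0 lower (0.25). *Mt2*, a metallothionein, had 237 CPM in CD40 KO members and 28.1 CPM in WT members (log2 ratio 3.07, 2.63 to 3.55), against 2.25 in the others. *Areg*, the growth factor amphiregulin, had 112 and 15.03 CPM (2.89, 2.29 to 3.57), against 2.14 in the others, and was detected in 39 of 92 and 11 of 53 members. *Ptgs2*, the inducible cyclooxygenase, had 301 and 79.1 CPM (1.93), against 1.52. The chemokine gene *Cxcl3* had 360 and 95.4 CPM (1.92), against 1.90. All 7 measured genes of the *Met* and *F13a1* list were higher, against 8.63% of all measured genes, among them *Met* (1.23), *Plcb1* (1.54) and *Thbs1* (1.11). The list's median log2 ratio was 1.27 in members and 1.39 in the others. This list and the other gene lists were written with earlier results of these data known, so their counts are a description and no test. *Col1a2*, the highest ratio of all, had 135 and 1.31 CPM, but 95.5% of its CD40 KO UMIs came from the member named above. *Timp1*, an inhibitor of matrix metalloproteases, had 148 and 25.5 CPM (2.53), and 68.7% of its CD40 KO UMIs came from 1 member. Without barcodes that held at least 20 UMIs of *Col1a1*, *Col1a2*, *Col3a1* and *Dcn*, the ratio of *Timp1* was 0.90 and that of *Col1a2* 2.25.

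Most measured genes of the Trem2 list of lipid-laden macrophages, and a part of the lysosomal list, were lower in CD40 KO members. Of 16 measured genes of the Trem2 list 12 were at least 1.5-fold lower and 0 higher, against 4.77% and 8.63% of all measured genes, with a median log2 ratio of -0.85, beside 0.02 over all measured genes. *Fabp5*, a fatty acid-binding protein, had 1757 CPM in CD40 KO members and 4926 CPM in WT members (-1.49, -1.54 to -1.44), and *Fabp4* had 85.4 and 279 CPM (-1.71). *Gpnmb*, a glycoprotein of phagocytes, had 191 and 491 CPM (-1.36). *Spp1*, which encodes osteopontin, had 5068 and 10418 CPM (-1.04), and *Trem2*, a lipid-sensing receptor, had 380 and 654 CPM (-0.78). Of 25 measured lysosomal genes 8 were lower and 0 higher, among them the protease gene *Ctsl*, with 974 and 1940 CPM. The median of the lysosomal list was -0.39 in members. In the others the Trem2 list had a median of -0.98 and the lysosomal list one of -0.35, beside 0.04 over all measured genes. Both lists were written with earlier results of these data known, so the counts are a description and no test.

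The genes that set the subset apart also differed between the libraries, in both directions. Of the 50 higher genes 33 had a mean of at least 50 CPM in members. Of these 33, 8 were at least 1.5-fold higher in CD40 KO members and 5 lower, in the background of 8.63% and 4.77%. *Dnah12* was lower, with 64.5 CPM in CD40 KO members and 157 CPM in WT members (-1.29, -1.56 to -1.02), while its ratio in the others was -0.02. *Gm43251* was lower too (-1.28), against 0.28 in the others, and so were *Pde4c* (-0.96, against -0.01) and *Pecam1* (-0.79, against -0.02). *Dnah17* was higher, with 107 and 55.5 CPM (0.95), against 2.32 in the others, and so were *Asah2* (0.77, against 0.47) and *Poc1b* (1.01, against -0.24). The 65 companions summed to 1466 CPM in CD40 KO members and 1546 CPM in WT members, against 141 and 80.7 CPM in the others. Deeper members weigh more in these sums, and the differences between members and others in the library ratio were not tested.

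**Figure D5:**
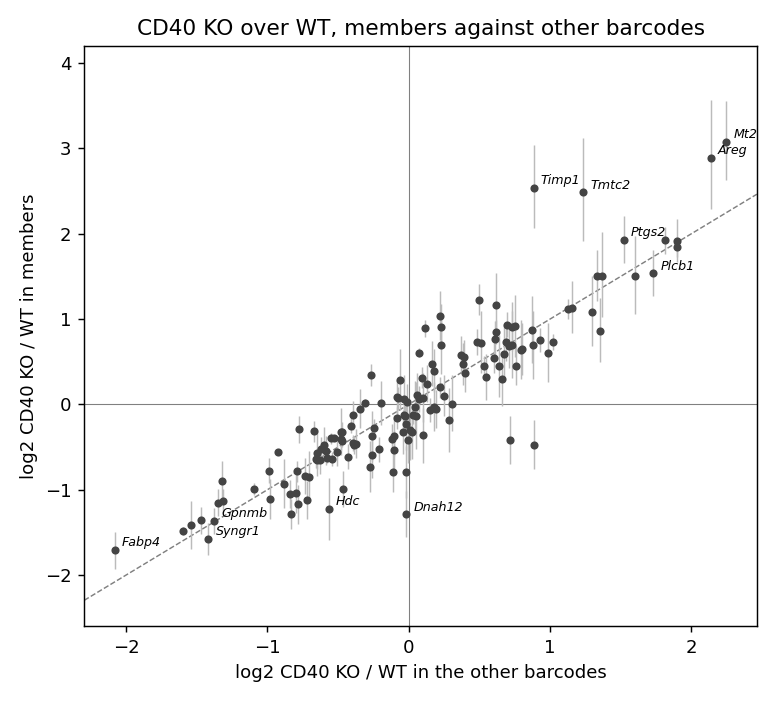
Log2 ratio of CD40 KO over WT in members (y axis, with exact 95% intervals) against the same ratio in the others (x axis) for 148 named genes; the dashed line marks equal ratios, and *Col1a2* (6.69 in members) lies above the plotted range. *Mt2* and *Areg* lie at the upper right and *Fabp4* at the lower left, while *Dnah12* lies at -1.29 in members and -0.02 in the others.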

How the data were processed

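Droplet libraries of sorted cells came from a v3 kit that tags transcript 3′ ends, as the labels' protocols give it. The deposited values are UMI counts per gene and barcode in 1 filtered matrix per library, written by Cell Ranger 7.0.1, per the file headers. Cell Ranger and STAR with build mm10 are named in the submitters' processing notes. The sources used here do not state whether counting took intron reads or strand.

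Counts were summed over barcodes and scaled to CPM. With 1 library per group no test was run. CPM has exact Poisson, shares Clopper-Pearson and ratios exact conditional 95% intervals. Only the ratio intervals were tested on simulated data, which were pooled Poisson counts without spread between barcodes. The members and gene lists were chosen with earlier results of these data known. The text draws on 252 genes: the 20 highest and 10 lowest between members and others, the 12 highest and 12 lowest between libraries at a mean of at least 50 CPM, the 2 highest and 2 lowest of each list, *Cd40* and the macrophage markers. Sex-specific transcripts and mitochondrial, ribosomal protein, haemoglobin, immunoglobulin and unnamed genes were left out of these ranks, and other X-linked genes such as *Timp1* were kept. *Clec6a*, *Clec7a* and *Mx1* are not analysed here. Clustering used 2000 variable genes without the 3 markers, 30 components, 15 neighbours and Leiden resolution 0.6. Scrublet's own threshold marked 0 CD40 KO and 39 WT barcodes, so the highest scores were marked at 0.8% per 1000 barcodes (530 and 902). Gene positions are from GENCODE vM21 (32235 of 32285 gene IDs matched). Alternatives changed the marker, depth, mitochondrial, *Malat1* and *Csf1r* limits, doublets, other cell types, weights, scaling, level minimum, fold and resolution. Clusters came from scanpy 1.11.5 with igraph 0.11.9 and leidenalg 0.10.2, intervals from scipy 1.17.1, and the rest from pandas 2.3.3, numpy 2.4.6 and matplotlib 3.10.9 under Python 3.11.15.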

Additional observations from a re-analysis of the deposited data

Results flagged for a closer look

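Fibroblast-linked genes ran in opposite directions in the 2 libraries, and these differences were not tested. The log2 ratio of members over others for *Col1a1* was 0.94 in CD40 KO and -5.32 in WT, for *Col1a2* 1.58 and -5.34, and for *Timp1* 1.01 and -0.64. Without barcodes that held at least 20 UMIs of *Col1a1*, *Col1a2*, *Col3a1* and *Dcn*, which was 1 member and 13 others in CD40 KO and 0 members and 26 others in WT, the ratios were 0.07 and -1.32 for *Col1a1*, 0.17 and -0.94 for *Col1a2*, and -0.07 and 0.27 for *Timp1*.

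The 3 marker transcripts also appeared in barcodes outside the comparisons. The marker rule was met by 19 CD40 KO and 18 WT barcodes that had enough UMIs and few mitochondrial ones but fell short of 0.4% *Malat1*.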

How the results depend on the processing

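No paired analysis was possible because each group had 1 library and the labels carry no replicate numbers. Of 186 alternative values of counts and shares, 135 stayed within 1.5 times the value reported (shares within their interval) and 51 moved. A change of direction was read for single genes only. The causes were not tested. The CD40 KO share was 2.95% with at least 5 marker UMIs, 1.10% with all 3 genes, 2.97% without the *Malat1* minimum, 2.88% without barcodes carrying other cell types' transcripts, 2.90% at most 50000 UMIs and 1.01% thinned; the WT share was 0.342% with all 3 genes and 0.390% thinned. Genes higher in members numbered 92 without other cell types, 81 with equal weights, 253 and 3 at minimums of 5 and 100 CPM, 99 at 1.5-fold and 77 at most 50000 UMIs. Genes lower numbered 20, 4, 6, 13 and 4 in that order without the 100 CPM minimum, 3 with all 3 genes and 1 with depth-weighted others. Of the 50 higher genes, 46 were among the 92. CD40 KO members against WT members gave 514 higher and 309 lower with all 3 genes, 448 and 303 without other cell types, 1379 and 832 at 5 CPM, 166 and 98 at 100 CPM, and 68 and 22 at 2-fold. Changed alike in the others were 531 and 198 at 5 CPM and 42 and 10 at 2-fold. List genes higher in members, 2 as reported, numbered 4 without other cell types, 5 with equal weights, 7 and 0 at 5 and 100 CPM, 7 at 1.5-fold and 4 at most 50000 UMIs. List genes higher in CD40 KO members numbered 119 at 5 CPM, 31 at 100 CPM and 21 at 2-fold, and lower ones 68 at 5 CPM and 12 at 2-fold. Members in their leading cluster were 36.6% at resolution 0.3 and 59.3% at 1.0, and they made up 2.57% and 48.9% of it, and 35.1% with doublets removed. *Ly6c2* reversed to -0.046 between CD40 KO and WT members with all 3 genes. The limit of 50000 UMIs and the removal of collagen-bearing barcodes were chosen after seeing the data.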
